A study of Mus musculus with 6 samples.

Results

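Cadherins are cell surface proteins that hold neighbouring cells together, and the genes described here encode the cadherin superfamily of the mouse together with the proteins that anchor it inside the cell. They were taken by symbol: every numbered Cdh gene, every protocadherin (Pcdh), desmoglein (Dsg), desmocollin (Dsc), plakophilin (Pkp) and alpha, beta or delta catenin (Ctnn), plus Jup, Dsp, Fat1 to Fat4 and Celsr1 to Celsr3. This gave 121 genes of the 55416 in the tables, carrying 120 different symbols because Pcdha11 names 2 gene identifiers. They comprised 23 cadherins, 58 protocadherins of the Pcdha, Pcdhb and Pcdhg clusters, 12 other protocadherins, 15 desmosome genes, 6 catenins and 7 Fat and Celsr genes. No measured value entered the choice.

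RNA was sequenced from organoids, miniature epithelial cultures grown in gel from the small intestinal lining of mice aged 4 to 8 weeks. In all 3 groups, controls included, the mice were Rosa26-rtTA Tg/Tg at one locus and Col1A1-TetO-OSKM Tg/Tg at another, so doxycycline switches on Oct4 (Pou5f1), Sox2, Klf4 and Myc through a transactivator made from the Rosa26 locus. The control organoids had no doxycycline, and the others had 0.1 or 0.5 µg/ml for 3 days, with 2 libraries in each group. The comparisons ask how the adhesion genes differ when the factors are induced to different degrees. The series calls the libraries biological replicates without saying whether they came from separate mice, so p-values measure only the spread between these samples.

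Total expected counts, the read counts that RSEM estimates for each gene, came to between 45289760 and 72547738 per library. Sox2, an induced factor, averaged 0.210, 84.8 and 309 CPM in the order of dose. CPM is a count divided by the size of its library, scaled by TMM (trimmed mean of M values) and set per 1000000 counts, and mean ± SD over 2 libraries is given throughout. Of 10 epithelial markers 5 rose, among them Krt8 and Krt19, and 5 fell, among them Krt18, Epcam and Cdx2, at 0.5 µg/ml (median log2 fold change 0.06). Their sum was 5631 to 5692 CPM in control, 6934 to 7270 CPM at 0.1 µg/ml and 8646 to 8718 CPM at 0.5 µg/ml. The immune list summed to 4.35 to 4.62 CPM in control, 6.76 to 7.11 CPM at 0.1 µg/ml and 14.5 to 15.1 CPM at 0.5 µg/ml. The neuron and glia list summed to 2.95 to 3.16, 2.46 to 3.00 and 14.7 to 18.7 CPM in the same order. The endothelium list was low but higher at each dose, at 0.379 to 0.385, 1.65 to 2.06 and 3.86 to 4.47 CPM. The fibroblast list summed to 1.17 to 1.297, 0.815 to 0.966 and 2.22 to 2.59 CPM, above control only at 0.5 µg/ml. The smooth muscle list stayed at 0.199 CPM or less in every library.

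In an adherens junction, a classical cadherin such as E-cadherin binds the same molecule on the next cell, while beta-catenin, alpha-catenin and p120-catenin link its tail to actin. In a desmosome, desmogleins and desmocollins do the binding, and plakoglobin, plakophilins and desmoplakin tie them to keratin filaments, which gives an epithelium its mechanical strength. Clustered protocadherins are best known from neurons, where each cell picks its own combination of isoforms as a surface identity, and the large Fat and Celsr cadherins orient cells within a sheet.

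The plaque genes Dsp and Jup both rose, while Ctnnb1, the close relative of Jup, fell, so the 250 bases upstream of a RefSeq start of each are shown for comparison. They are on GRCm38.p6, 5′ to 3′ along the gene's strand, at chr13:38151044-38151293 (plus strand, Dsp), chr11:100397791-100398040 (minus strand, Jup) and chr9:120933150-120933399 (plus strand, Ctnnb1). The build of the deposited tables is not settled, and these coordinates come from RefSeq alone. Capitals mark matches to any of 7 motifs searched on both strands.
Dsp: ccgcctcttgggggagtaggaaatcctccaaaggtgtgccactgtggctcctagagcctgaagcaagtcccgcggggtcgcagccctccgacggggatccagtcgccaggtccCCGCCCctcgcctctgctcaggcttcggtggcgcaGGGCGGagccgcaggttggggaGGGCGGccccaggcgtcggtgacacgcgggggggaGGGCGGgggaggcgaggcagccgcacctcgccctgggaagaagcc
Jup: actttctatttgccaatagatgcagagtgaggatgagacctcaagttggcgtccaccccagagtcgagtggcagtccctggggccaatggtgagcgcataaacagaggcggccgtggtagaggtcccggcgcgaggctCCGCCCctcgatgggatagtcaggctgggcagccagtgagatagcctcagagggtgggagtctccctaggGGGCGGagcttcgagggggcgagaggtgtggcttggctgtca
Ctnnb1: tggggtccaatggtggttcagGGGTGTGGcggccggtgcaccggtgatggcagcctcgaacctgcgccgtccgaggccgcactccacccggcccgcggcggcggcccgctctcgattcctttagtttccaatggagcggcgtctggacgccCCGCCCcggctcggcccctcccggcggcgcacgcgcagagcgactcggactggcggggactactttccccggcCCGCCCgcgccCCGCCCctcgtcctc

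The GC box, GGGCGG or on the other strand its complement CCGCCC, matched 4 times for Dsp, 2 times for Jup and 3 times for Ctnnb1, and 32.7% of all 32851 RefSeq windows of the same length hold at least 1. Ctnnb1 also held the CACCC box CCACACCC, written GGGTGTGG on this strand, which 3.20% of windows hold. No match was found in these 3 windows for CAGGTG, the E-box of Snail and Zeb repressors (17.2% of windows), for CACGTG, the E-box of Myc (6.02%), or for the octamer ATGCAAAT (1.60%). The AP-1 site TGANTCA (6.75%) and the Grainyhead site AACCGGTT (0.116%) had none either. No matches overlapped in these windows, and a match is only a description of the sequence. Of the 121 genes 36 had a window in the RefSeq table. Bases just after the RefSeq start lay in a GENCODE M21 transcript of Dsp and of Ctnnb1 but in none of Jup. Ctnnb1 has another RefSeq start whose window overlaps the one shown and held 2 GC boxes, both already among the 3.

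Of the 121 genes, 110 had at least 1 count in some library and 11 had none. A low-count filter left 68 for testing, and the 53 others never exceeded 18 counts in a library. At 0.5 µg/ml against control 23 of the 68 were higher and 28 lower (edgeR quasi-likelihood test, two-sided, Benjamini-Hochberg adjusted p under 0.05 over all 16975 tested genes). Of all tested genes 67.5% were called in this comparison, 34.4% higher and 33.1% lower, so the 51 called here, 75.0% of 68, stand only a little above that background. The lower calls were fewer when any single library of control or 0.5 µg/ml was left out. At 0.1 µg/ml against control 17 were higher and 14 lower, where 34.6% of all genes were called, 20.8% higher and 13.8% lower. Lower calls numbered 8 when either control library was left out, of which 7 were among the 14 without the first and 8 without the second. They numbered 5, all among the 14, when the first library at 0.1 µg/ml was left out. Between the doses 24 were higher and 14 lower at 0.5 µg/ml, where 58.9% of all genes were called, 29.8% higher and 29.1% lower. Lower calls numbered 9 without the second library at 0.1 µg/ml or the first at 0.5 µg/ml, and 7 without the second at 0.5 µg/ml. A gene silent in control could pass the filter only by being high in treated libraries. A low gene could likewise pass only by being higher in control, as Fat4 did with 21 and 31 control counts. No count over the tested genes therefore speaks for the genes left out.

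The direction went with class for the desmosome genes and for the Pcdhb and Pcdhg clusters, while several other classes were split. Of the 22 genes that reached 5 CPM in some group, 16 were higher, 5 lower and 1 not called at 0.5 µg/ml. Only 18 of the 22 reached 5 CPM in control, and the others entered only by being high in treated libraries. This split therefore cannot show whether direction went with abundance. Of 14 desmosome genes tested, 12 were higher and none lower, and the median log2 fold change was 1.12, against -0.00 over all tested genes. Of 31 clustered protocadherins tested, 3 were higher, among them both Pcdha genes tested, and 18 lower, with a median of -1.19. Some low ones passed the filter only through control, such as Pcdhb14 with 10 and 14 control counts and 3 and 3 at 0.5 µg/ml. These counts therefore cannot speak for the clustered protocadherins left out. The lower count fell when any single library of control or 0.5 µg/ml was left out, most without the second at 0.5 µg/ml. The 12 cadherins tested split into 4 higher, 4 lower and 4 not called. At 0.1 µg/ml, in the fit of all libraries, the desmosome genes split 10 higher and none lower (median 0.44, all genes 0.02) and the clustered protocadherins 2 higher and 7 lower (median -0.38). The last count rested on single libraries: it was 3 without the first control library, 2 without the second, 1 without the first library at 0.1 µg/ml and 4 without the second. Dsc1, Dsc3 and Dsg1b had 0 to 2 control counts in all, so they could be tested only because treated libraries were high. Without them the desmosome genes split 9 higher, none lower and 2 not called of 11 at 0.5 µg/ml (median 0.66), and 8 higher and none lower at 0.1 µg/ml (median 0.30).

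**Figure D1:**
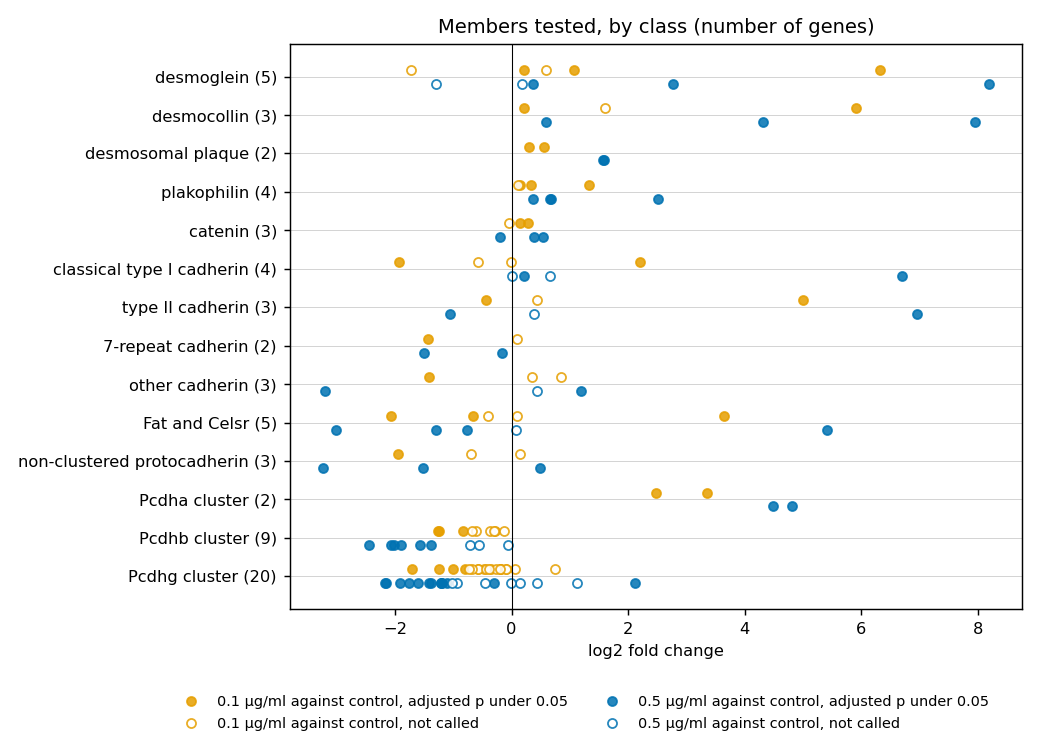
Log2 fold change against control (horizontal axis) of the 68 tested genes by class (vertical axis), at 0.1 µg/ml (orange) and 0.5 µg/ml (blue). Filled points passed the test and open points did not. Points near 5 and beyond in the desmoglein, desmocollin and type II cadherin classes are fitted values against no control counts (Dsg1b, Dsc1, Cdh6) and only mark the direction. The filled desmosome points lie right of 0, and the filled Pcdhb points lie left of it.

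Desmosomal cadherins form the adhesive part of the desmosome. Dsg2, the desmoglein of simple epithelia, stood at 256 and 259 CPM in the control libraries, 299.5 and 300.3 CPM at 0.1 µg/ml, and 337 and 331 CPM at 0.5 µg/ml. No 2 groups overlapped, and the rise at 0.5 µg/ml over control was 1.3-fold (log2 fold change 0.37, SE 0.0373, edgeR adjusted p = 1.20e-05). Dsc2, the desmocollin paired with it in intestine, stood at 182 and 184, then 211 and 212, then 279 and 273 CPM in the same order. The groups were separate here too, and the rise was 1.51-fold (adjusted p = 5.11e-07). Because bulk RNA was measured, a change in the number of cells of a type and a change in RNA per cell cannot be told apart. This holds for rises and falls, for these genes and any below.

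The desmosomal cadherins of stratified epithelium, such as skin, were low and moved further. Dsg3, the desmoglein of the basal layers of skin and oral mucosa, read 0.932 and 1.02 CPM in control, 2.17 and 1.90 CPM at 0.1 µg/ml, and 6.14 and 7.10 CPM at 0.5 µg/ml. It rose 2.09-fold at 0.1 µg/ml (adjusted p = 0.00139) and 6.79-fold at 0.5 µg/ml (adjusted p = 2.73e-07), with no overlap between groups. Dsc1, a desmocollin of the upper skin layers, had 0 counts in both control libraries and 0.137 ± 0.0208 and 0.587 ± 0.0440 CPM at the doses. With a floor of 3 counts per control library it was at least 2.27-fold higher at 0.1 µg/ml and at least 9.74-fold higher at 0.5 µg/ml (adjusted p = 0.00434 and 3.61e-05).

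Dsg1b, one of the mouse copies of the desmoglein that upper skin layers make, was likewise at 0 in control, and at 0.185 ± 0.0310 and 0.684 ± 0.254 CPM at the doses. It was at least 3.07-fold and at least 11.3-fold higher (adjusted p = 0.00495 and 6.80e-05). Its rise between the doses was lost without the second library at 0.5 µg/ml (adjusted p = 0.0638). Dsc3, a desmocollin of basal skin cells, went from 2 counts over both control libraries to 43 at 0.5 µg/ml, or 22.3 times as much (exact 95% interval for counting error 5.82 to 190, adjusted p = 0.000165), and did not pass at 0.1 µg/ml. Of the rest, Dsg1a had 0, 0, 2, 1, 8 and 8 counts and was not tested. The copies Dsg1a, Dsg1b and Dsg1c are near-identical, so RSEM's division of reads among them is uncertain. The Dsg1b folds hold only for that copy as RSEM divided the reads. From control to 0.1 µg/ml Dsg1b went from 0 to 0.185 CPM and Dsg1a from 0 to 0.0240 CPM, while Dsg1c went from 0.311 to 0.102 CPM. At 0.5 µg/ml they averaged 0.684, 0.168 and 0.130 CPM in the same order. A change in the summed counts of these copies was not tested at either dose.

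Dsg1c and Dsg4, the latter a desmoglein of hair, were the 2 desmosome genes not called at 0.5 µg/ml. Dsg1c averaged 0.311, 0.102 and 0.130 CPM, and Dsg4 0.332, 0.497 and 0.371 CPM, in the order of dose. Without the second library at 0.1 µg/ml, the log2 fold change of Dsg1c at that dose against control was -2.87. The absence of lower desmosome calls at 0.1 µg/ml rested on that library. On the TPM scale, which divides counts by transcript length and gives each library the same total, Dsg2 made up 99.3% of the summed desmoglein level in control and 97.7% at 0.5 µg/ml. Dsc2 made up 99.6% or more of the desmocollin level in every group. The low genes changed by larger factors, but Dsg2 and Dsc2 still made up almost all of both families.

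The plaque genes moved further than the abundant desmosomal cadherins. Desmoplakin, Dsp (ENSMUSG00000054889, chromosome 13), which grips keratin filaments, stood at 482 and 464 CPM in control, 574 and 589 CPM at 0.1 µg/ml, and 1467 and 1366 CPM at 0.5 µg/ml. The groups did not overlap, and the rise was 1.23-fold at 0.1 µg/ml (adjusted p = 0.000736) and 3.00-fold at 0.5 µg/ml (log2 fold change 1.58, SE 0.0458, adjusted p = 1.79e-09). Plakoglobin, Jup (ENSMUSG00000001552, chromosome 11), which serves both desmosomes and adherens junctions, stood at 233 and 221, then 336 and 329, then 669.5 and 673 CPM. It rose 1.46-fold and then 2.96-fold over control (adjusted p = 7.29e-06 and 1.07e-09), again without overlap.

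Plakophilins sit between the cadherin tails and desmoplakin. Pkp1 (ENSMUSG00000026413, chromosome 1), the plakophilin best known from stratified epithelium, rose most among the abundant desmosome genes. It stood at 78.3 and 81.8 CPM in control, 202 and 202 CPM at 0.1 µg/ml, and 453 and 461 CPM at 0.5 µg/ml. Its groups were far apart relative to their spread, and the rise was 2.52-fold and 5.71-fold (log2 fold changes 1.33 and 2.51, SE 0.0414 and 0.0425, adjusted p = 1.71e-08 and 6.80e-11).

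The other plakophilins moved less. Pkp2, the widely expressed member, read 82.4 and 82.2, then 87.8 and 89.2, then 105 and 107 CPM, and passed only at 0.5 µg/ml (1.29-fold, adjusted p = 2.69e-05). Pkp3, found across epithelia, read 63.0 and 63.4, then 83.6 and 75.7, then 102 and 100.98 CPM, a rise of 1.26-fold and 1.60-fold (adjusted p = 0.000978 and 1.94e-06). Pkp4, which also binds adherens junctions, read 98.3 and 91.7, then 104 and 105, then 151 and 150.3 CPM. Its rise of 1.59-fold at 0.5 µg/ml was clear of the spread (adjusted p = 7.78e-07). Its 1.10-fold rise at 0.1 µg/ml (adjusted p = 0.0365) was lost in 14 of 15 alternatives, among them those without the second control library (adjusted p = 0.329), the first at 0.1 µg/ml (0.151), the second at 0.1 µg/ml (0.20), the first at 0.5 µg/ml (0.107) or the second at 0.5 µg/ml (0.105). The 12 desmosome calls at 0.5 µg/ml against control held in every alternative that tested the gene.

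**Figure D2:**
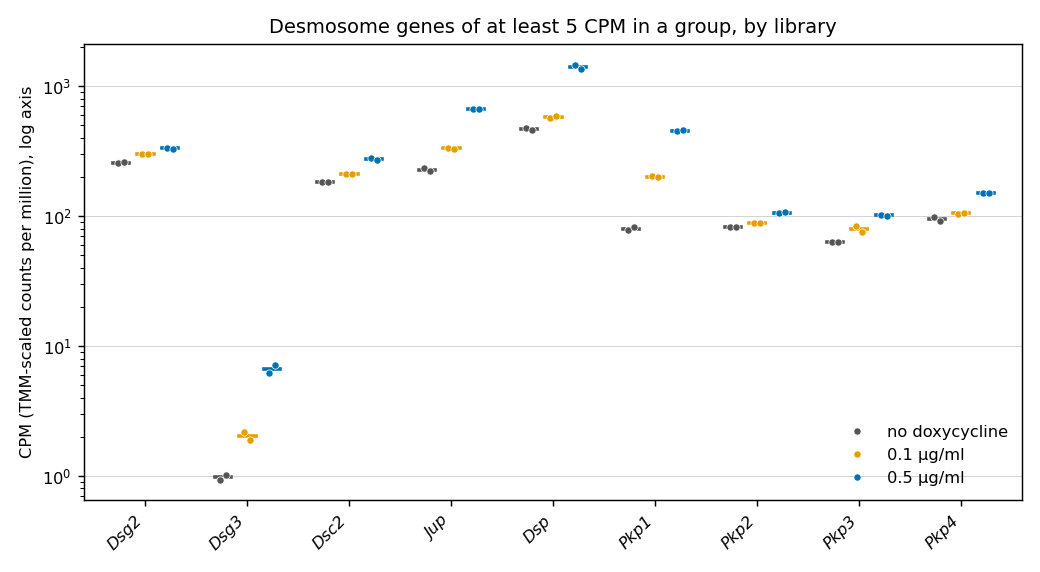
CPM on a log axis of the 9 desmosome genes that reached 5 CPM in some group. Points are libraries, bars are group means, and colours give no doxycycline (grey), 0.1 µg/ml (orange) and 0.5 µg/ml (blue). Dsp, Jup and Pkp1 show the widest steps among the genes above 50 CPM, with Pkp1 going from 80.0 to 457 CPM.

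Since the members moved by different factors, their proportions shifted. Summed over the 15 desmosome genes, TPM was 395 ± 5.03 in control, 511 ± 1.42 at 0.1 µg/ml and 860.0 ± 16.9 at 0.5 µg/ml, a ratio of 2.18 between the last and control. The summed TPM of Dsp and Jup rose 2.72 times, that of the plakophilins 2.11 times, and those of the desmocollins and desmogleins 1.43 and 1.24 times. Pkp1 made up 17.8% ± 0.895 of the summed plakophilin TPM in control, 32.2% ± 0.218 at 0.1 µg/ml and 45.6% ± 0.0392 at 0.5 µg/ml. Jup made up 27.5% ± 0.678 of the summed TPM of Jup and Ctnnb1 in control, 35.3% ± 0.12 at 0.1 µg/ml and 55.6% ± 0.738 at 0.5 µg/ml. The TPM ratio of Dsp to Dsg2 went from 1.23 ± 0.0561 to 2.73 ± 0.109, while that of Dsg2 to Dsc2 went from 1.11 ± 0.000577 to 0.95 ± 0.00447. These sums and ratios are descriptions, since an exact test of 2 against 2 libraries cannot go below p = 0.333.

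**Figure D3:**
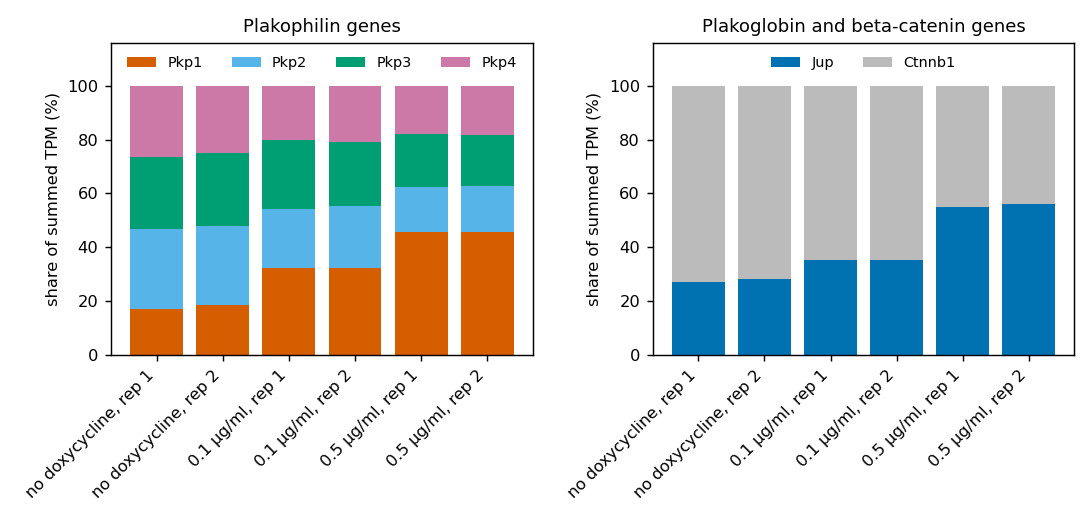
Share of summed TPM in percent (vertical axis) for each of the 6 libraries (horizontal axis), for the 4 plakophilin genes (left) and for Jup and Ctnnb1 (right). The Pkp1 share is 17.1 to 18.4% in control and 45.6 to 45.7% at 0.5 µg/ml, and the Jup share passes 50% only in the 0.5 µg/ml libraries.

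Cdh1, Cdh17 and the catenins tested changed by small factors. E-cadherin, Cdh1 (ENSMUSG00000000303, chromosome 8), the main cadherin of epithelium, stood at 758 and 745 CPM in control, 743 and 753 CPM at 0.1 µg/ml, and 881 and 872 CPM at 0.5 µg/ml. The control and 0.1 µg/ml libraries overlapped, and the rise at 0.5 µg/ml was 1.17-fold (adjusted p = 0.000338). Cdh17, the liver-intestine cadherin that marks intestinal epithelium, stood at 719 and 759, then 809.8 and 769, then 664 and 649 CPM. It fell 1.13-fold at 0.5 µg/ml against control (adjusted p = 0.00599) and was not called at 0.1 µg/ml. By TPM, Cdh17 exceeded Cdh1 in control, with a ratio of 1.26 ± 0.0613, and not at 0.5 µg/ml, with a ratio of 0.963 ± 0.00595.

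Among the catenins, beta-catenin, Ctnnb1 (ENSMUSG00000006932, chromosome 9), which also carries the Wnt signal, stood at 610.4 and 583 CPM in control, 578 and 577 CPM at 0.1 µg/ml, and 525 and 515 CPM at 0.5 µg/ml. It fell 1.15-fold at 0.5 µg/ml (adjusted p = 0.00128), and the fall between the doses was lost without the second library at 0.5 µg/ml (adjusted p = 0.0565). p120-catenin, Ctnnd1, which keeps cadherins at the membrane, rose from 339 and 340.0 CPM to 414 and 416 and then 501 and 492 CPM. Those steps of 1.22-fold and 1.46-fold over control were each larger than the spread (adjusted p = 0.000236 and 6.26e-07).

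Alpha-catenin, Ctnna1, the link to actin, read 387 and 383, then 431 and 422, then 491 and 509.7 CPM. It rose 1.3-fold at 0.5 µg/ml (adjusted p = 1.45e-05). Its 1.11-fold rise at 0.1 µg/ml (adjusted p = 0.0158) was lost in 8 of 15 alternatives, among them those without the first (adjusted p = 0.0695) or second (0.110) control library and without the first (0.127) or second (0.0676) library at 0.1 µg/ml. The neural and muscle forms Ctnna2, Ctnna3 and Ctnnd2 had 9 counts or fewer in any library and were not tested.

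**Figure D4:**
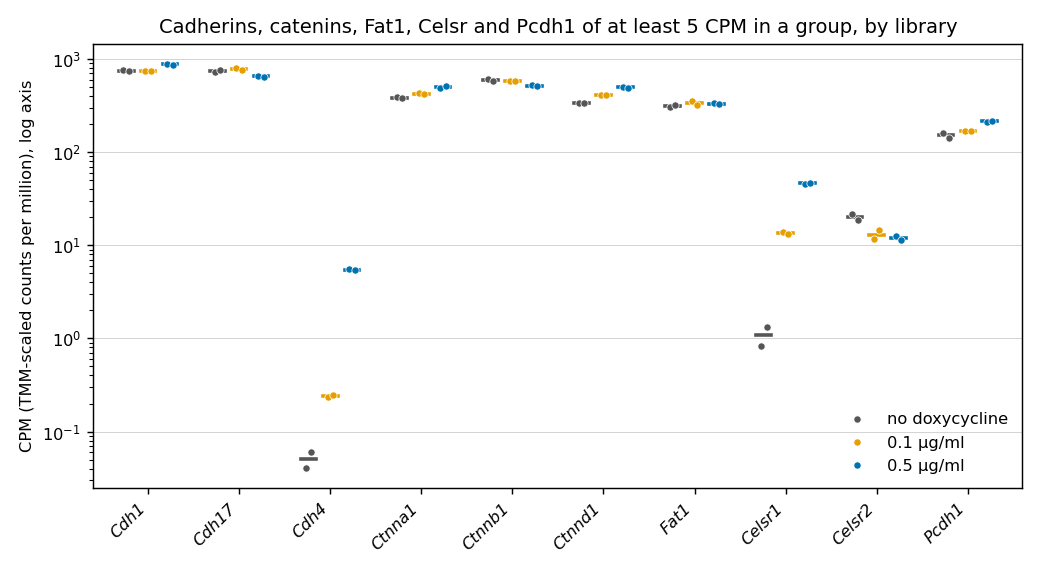
CPM on a log axis of the cadherins, catenins, Fat1, Celsr genes and Pcdh1 that reached 5 CPM in some group. Points are libraries, bars are group means, and colours are as for the desmosome genes. Cdh4 and Celsr1 span from about 1 CPM or less in control to 5.49 and 46.2 CPM at 0.5 µg/ml, while Cdh1, Cdh17, the catenins and Fat1 stay within narrow bands.

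Cdh4 (ENSMUSG00000000305, chromosome 2), or R-cadherin, a classical cadherin known from retina and developing tissues, was the cadherin with the largest change by a called ratio. It read 0.0405 and 0.0598 CPM in control, 0.234 and 0.245 CPM at 0.1 µg/ml, and 5.50 and 5.49 CPM at 0.5 µg/ml. It rose 4.58-fold at 0.1 µg/ml (adjusted p = 0.00434) and 104-fold at 0.5 µg/ml (adjusted p = 1.84e-08), the control level resting on 2 and 3 counts. N-cadherin, Cdh2, whose gain marks a mesenchymal state, averaged 0.503 ± 0.0908, 0.127 ± 0.0352 and 0.509 ± 0.123 CPM. It was lower at 0.1 µg/ml than in control (adjusted p = 0.00471) and higher at 0.5 than at 0.1 µg/ml (adjusted p = 0.00233), with control and 0.5 µg/ml overlapping.

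The remaining cadherins were under 5 CPM. Cdh24, a type II cadherin that binds catenins, fell 2.08-fold from 4.24 ± 0.352 to 2.03 ± 0.248 CPM at 0.5 µg/ml (adjusted p = 0.000150). Cdh26, known from inflamed gut epithelium, fell 9.22-fold from 0.884 ± 0.161 to 0.0919 ± 0.0328 CPM (adjusted p = 5.22e-05). Cdh16, a kidney cadherin, fell 2.82-fold from 0.716 ± 0.363 to 0.254 ± 0.0614 CPM (adjusted p = 0.0113), a call lost without the first control library (adjusted p = 0.134) or the second library at 0.5 µg/ml (0.0896). Cdh6, found in developing kidney, had 0 counts in control and 0.291 ± 0.0226 CPM at 0.5 µg/ml, at least 4.82-fold higher (adjusted p = 0.000282).

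Cdh23, the tip-link cadherin of the inner ear, rose 2.28-fold to 0.297 ± 0.0957 CPM (adjusted p = 0.0374). That call was lost in 8 of 13 alternatives, 5 of which left out a library: the first control (adjusted p = 0.0999), the second control (0.167), the first (0.0629) or second (0.0661) at 0.1 µg/ml, or the second at 0.5 µg/ml (0.299). Cdh3, Cdh11 and Cdh13 were not called against control at either dose. The other 11 cadherins were not tested, with 18 counts or fewer in any library. VE-cadherin, Cdh5, which defines endothelium, had 0 counts in all 6 libraries. Of 6 endothelial markers Cldn5 and Emcn were also at 0 throughout, and 2 were tested, Tek and Tie1. Both were higher at 0.5 µg/ml (log2 fold changes from 4.38 to 7.31), with Tek going from 0.171 ± 0.101 to 3.63 ± 0.543 CPM.

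Among the giant cadherins, Celsr1 (ENSMUSG00000016028, chromosome 15), a planar polarity cadherin of epithelia, moved most. It read 0.831 and 1.34 CPM in control, 13.97 and 13.1 CPM at 0.1 µg/ml, and 45.8 and 46.7 CPM at 0.5 µg/ml. The rise was 12.5-fold and 42.5-fold (log2 fold changes 3.64 and 5.41, SE 0.137 and 0.126, adjusted p = 6.08e-08 and 4.83e-10). Celsr2, its paralog, read 21.9 and 18.9, then 11.5 and 14.5, then 12.6 and 11.3 CPM, and fell 1.57-fold and 1.70-fold (adjusted p = 0.00192 and 0.000259). The doses overlapped for Celsr2. By TPM the Celsr1 to Celsr2 ratio went from 0.0890 ± 0.0655 in control to 0.657 ± 0.186 and 3.16 ± 0.246.

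Fat1, a large cadherin that restrains growth, read 309 and 324, then 352 and 322, then 338 and 326 CPM, and was not called in any comparison (log2 fold change 0.07 at 0.5 µg/ml, SE 0.0507). Fat4, which pairs with Dchs1 in planar polarity, fell 8.08-fold from 0.522 ± 0.136 to 0.0613 ± 0.0219 CPM (adjusted p = 0.000360). Fat4 passed the low-count filter only through its control libraries. Celsr3, best known from axon guidance, fell 2.45-fold from 1.95 ± 0.0498 to 0.796 ± 0.0406 CPM (adjusted p = 0.000283). Fat2 and Fat3 had 9 counts or fewer in any library and were not tested.

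Of the 12 protocadherins outside the clusters, 3 were tested. Pcdh1, a protocadherin of airway and other epithelia, read 161 and 144 CPM in control, 170.5 and 167 CPM at 0.1 µg/ml, and 213 and 214 CPM at 0.5 µg/ml. It rose 1.40-fold at 0.5 µg/ml (adjusted p = 2.66e-05) and did not pass at 0.1 µg/ml, where it passed without the first control library (adjusted p = 0.0102). Pcdh8, known from neurons and somites, read 1.74 and 0.658, then 0.234 and 0.408, then 0.0916 and 0.153 CPM. It fell 9.43-fold at 0.5 µg/ml (adjusted p = 0.000808), its control libraries being far from each other. Pcdh19, a gene of a female-limited epilepsy in humans, fell 2.85-fold from 1.96 ± 0.206 to 0.698 ± 0.309 CPM (adjusted p = 0.000987).

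The clustered protocadherins lie side by side on 1 chromosome in 3 groups. Isoforms of the Pcdha and of the Pcdhg cluster share their 3′ exons, so how reads were divided among isoforms is an estimate, and counts were also summed per cluster. The Pcdha sum was 1.70 and 1.96 CPM in control, 15.8 and 16.5 CPM at 0.1 µg/ml, and 43.9 and 44.9 CPM at 0.5 µg/ml. It rose 8.80-fold and 24.2-fold (log2 fold changes 3.14 and 4.60, SE 0.0872 and 0.0828, adjusted p = 7.97e-09 and 9.21e-11).

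The Pcdhb sum moved the other way, from 5.47 and 5.83 to 3.12 and 3.47 and then 2.15 and 1.99 CPM, a fall of 1.72-fold and 2.73-fold (adjusted p = 0.00105 and 7.35e-06). The Pcdhg sum went from 55.1 and 52.5 to 42.4 and 48.0 and then 36.7 and 36.3 CPM. It fell 1.47-fold at 0.5 µg/ml (log2 fold change -0.56, adjusted p = 2.89e-05). Its 1.19-fold fall at 0.1 µg/ml (log2 fold change -0.25, adjusted p = 0.0106) was lost without the first library of that dose (log2 fold change -0.18, adjusted p = 0.0758). On the per-length TPM scale the Pcdhg sum was above the Pcdha sum in every library, at 14.6 ± 0.658 against 0.385 ± 0.0354 TPM in control and 9.23 ± 0.799 against 8.58 ± 0.297 TPM at 0.5 µg/ml.

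**Figure D5:**
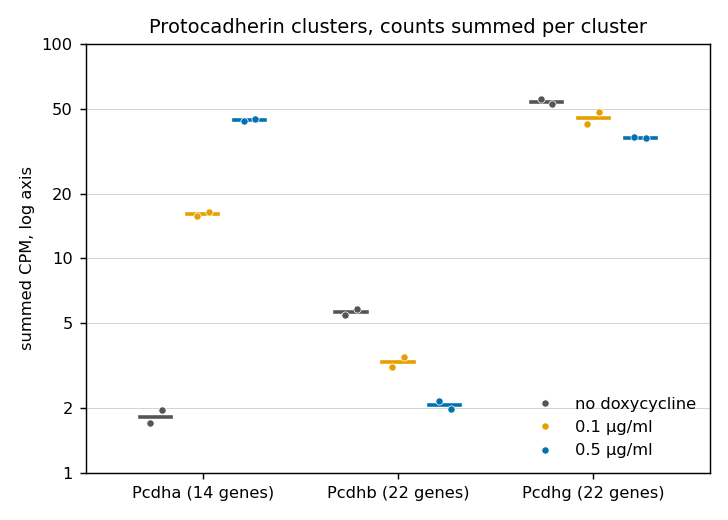
Summed CPM on a log axis of the 14 Pcdha, 22 Pcdhb and 22 Pcdhg genes. Points are libraries, bars are group means, and colours give the dose. The Pcdha sum rises from 1.82 to 44.4 CPM while the Pcdhb and Pcdhg sums step down from 5.65 to 2.07 and from 53.8 to 36.5 CPM.

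Most of the Pcdha signal was 1 isoform. Pcdhac2 (ENSMUSG00000102697), a C-type isoform that many cells use together rather than by random choice in neurons, read 1.34 and 1.70 CPM in control, 15.3 and 15.7 CPM at 0.1 µg/ml, and 42.4 and 42.9 CPM at 0.5 µg/ml. The rise was 10.2-fold and 28.1-fold (adjusted p = 1.18e-08 and 1.43e-10). Pcdhac2 held 80.2% ± 7.33 of the cluster's TPM in control, 94.9% ± 2.16 at 0.1 µg/ml and 93.9% ± 0.285 at 0.5 µg/ml. Pcdha4, the other Pcdha isoform tested, rose 22.5-fold from 0.142 and 0 to 1.37 and 1.88 CPM (adjusted p = 0.000119), passing through 0.303 and 0.530 CPM at 0.1 µg/ml. The 12 other Pcdha identifiers had 9 counts or fewer in any library.

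All 9 Pcdhb genes tested had a log2 fold change below 0 at 0.5 µg/ml, from -2.45 to -0.06, and 6 passed the test: Pcdhb5, Pcdhb14, Pcdhb16, Pcdhb17, Pcdhb19 and Pcdhb22. The Pcdhb5 call was lost whichever library was left out (edgeR adjusted p from 0.0639 to 0.275), and the Pcdhb14 call without the second control library (0.0708) or the second at 0.5 µg/ml (0.0710). Each of the 9 stood at 0.925 CPM or less in every group mean, and 13 more were too low to test. Pcdhb14 passed the filter only through its control libraries, so the shared direction does not speak for those 13. Of 20 Pcdhg genes tested, 16 had a log2 fold change below 0 at 0.5 µg/ml, 12 fell and 1 rose. The lower count was 8 without the second library at 0.5 µg/ml, and 9 to 12 without any other. Pcdhgc3, the most abundant, read 30.8 and 30.1, then 26.6 and 30.5, then 25.2 and 24.1 CPM and fell 1.24-fold at 0.5 µg/ml (adjusted p = 0.00319). Pcdhgb6 read 6.48 and 5.68, then 4.70 and 5.48, then 2.04 and 2.49 CPM and fell 2.67-fold (adjusted p = 2.05e-05).

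Pcdhga5 read 1.22 and 1.64, then 0.579 and 0.877, then 0.298 and 0.326 CPM, a fall of 4.53-fold at 0.5 µg/ml (adjusted p = 0.000189). Pcdhga11 was the isoform that rose, with 0.304 and 0.180, then 0.345 and 0.489, then 1.51 and 0.633 CPM. Its libraries at 0.5 µg/ml differed from each other by more than those of the other groups, and the rise was 4.34-fold (adjusted p = 0.00333). Pcdhgc4 differed widely within a group: its libraries at 0.5 µg/ml held 18 and 166 counts, and it was not called (log2 fold change -1.02, adjusted p = 0.134). Without the second of them it was lower than control (log2 fold change -3.21, adjusted p = 0.000196), and lower than at 0.1 µg/ml (log2 fold change -2.46, adjusted p = 0.00150).

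Genes that work with these adhesion proteins were followed through 9 lists, to be read against the 34.4% higher and 33.1% lower among all tested genes at 0.5 µg/ml. Of 11 plakins and desmosome-associated genes tested, 9 rose and 1 fell at 0.5 µg/ml, with a median log2 fold change of 1.44. Envoplakin, Evpl, a keratin-linking plakin of stratified epithelium, rose 16.0-fold from 13.5 ± 0.418 to 216 ± 13.0 CPM (adjusted p = 1.77e-10). The one that fell was Krt18, a keratin of simple epithelium, 1.83-fold from 368 ± 29.1 to 201 ± 1.91 CPM (adjusted p = 4.56e-07). Its partner Krt8 rose 2.71-fold to 3102 ± 26.4 CPM.

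Of 16 adherens junction partners, 9 rose (56.2%) and 5 fell (31.2%), with a median of 0.21. Nectin4, an immunoglobulin-type adhesion receptor, rose 118-fold from 1.02 ± 0.131 to 121 ± 8.55 CPM (adjusted p = 6.80e-11), and the actin crosslinker Actn1 fell 3.50-fold from 208 ± 1.16 to 59.5 ± 0.707 CPM (adjusted p = 2.51e-09). Of 12 planar polarity and Fat partners, 5 rose (41.7%) and 4 fell (33.3%), shares close to those of all genes (median -0.22). Vangl2, a core polarity protein, fell 3.17-fold from 8.44 ± 0.163 to 2.67 ± 0.364 CPM (adjusted p = 1.89e-06). Prickle2, another core polarity protein, held 2 counts in control and averaged 0.513 ± 0.0199 CPM at 0.5 µg/ml.

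The 7 epithelial junction activators all rose at 0.5 µg/ml, with a median log2 fold change of 1.00. Grhl1, a Grainyhead factor that acts on desmosomal cadherin genes in skin, rose 8.44-fold from 3.83 ± 0.198 to 32.3 ± 0.595 CPM (adjusted p = 7.35e-09). Grhl2, which acts on Cdh1, rose 1.21-fold to 60.0 ± 1.47 CPM (adjusted p = 0.000326). Of 8 cadherin gene repressors only 3 were tested, of which 1 rose and 1 fell at 0.5 µg/ml (median -0.53). Tcf3 fell 1.5-fold to 60.6 ± 0.975 CPM (adjusted p = 4.49e-06). Snai1, at 0.241 ± 0.0154 CPM, rose and passed narrowly at 0.5 µg/ml (log2 fold change 1.39, adjusted p = 0.0325). The Snai1 call was lost in 8 of 13 alternatives, 5 of them leaving out a library, namely the second control (adjusted p = 0.233), the first (0.0581) or second (0.0623) at 0.1 µg/ml, and the first (0.132) or second (0.108) at 0.5 µg/ml.

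Cadherin-related genes with other names included 6 tested, of which none rose and 4 fell at 0.5 µg/ml (median -0.56). Cdhr2 and Cdhr5, which link neighbouring microvilli of the brush border, were higher at 0.1 µg/ml and lower at 0.5 µg/ml than control. Cdhr2 averaged 169 ± 7.19, 241 ± 28.5 and 118 ± 2.29 CPM, and Cdhr5 159 ± 0.0669, 230.3 ± 19.5 and 125 ± 5.59 CPM. Ret, a receptor with cadherin-like repeats, fell 5.69-fold to 1.84 ± 0.0495 CPM (adjusted p = 4.95e-08). Of 4 intracellular partners of Cdhr2 and Cdhr5, Ush1c rose 1.62-fold and Calml4 fell 2.42-fold (adjusted p = 6.01e-06 and 1.58e-08), Anks4b fell and Myo7b was not called (median of the 4, -0.22).

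Of 7 proteases that shed or cut cadherins, 3 rose and 3 fell at 0.5 µg/ml (42.9% each, median 0.11), little more than among all genes. Adam15 rose 3.70-fold to 76.6 ± 2.44 CPM and Mmp7, a Paneth cell protease in intestine, fell 5.09-fold to 0.815 ± 0.149 CPM (adjusted p = 5.29e-09 and 3.12e-06). Of 10 regulators of the protocadherin clusters, which include CTCF and cohesin, 1 rose and 6 fell (median -0.18). The cohesin subunit Rad21 fell 1.38-fold to 199.96 ± 0.871 CPM (adjusted p = 3.50e-06). Smchd1, a chromatin protein that keeps clustered protocadherins low, rose 1.14-fold to 102 ± 2.51 CPM (adjusted p = 0.00321), a call that leaving out the first 0.5 µg/ml library ended (adjusted p = 0.0555). Among neuron and glia markers at 0.5 µg/ml, Tubb3 rose from 1.35 ± 0.0990 to 16.2 ± 2.80 CPM, while Elavl4 fell from 0.241 ± 0.00264 to 0.00959 ± 0.0136 CPM. Of 3 immune markers tested, Cd68 rose from 2.23 ± 0.366 to 13.5 ± 0.372 CPM, Ptprc from no counts to 0.283 ± 0.0207 CPM, and Itgam fell from 2.17 ± 0.175 to 0.861 ± 0.0783 CPM. The part of other cell types in the Pcdha, Cdh4 and Celsr1 results was not tested.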

How the data were processed

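Per the submitters' processing notes, the tools named are RSEM 1.3.3, STAR 2.7.3a, Trim Galore and FastQC. The builds named are GRCm39 and mm10, with no role given. The deposited tables hold, for each gene, expected counts from RSEM and, in another table, TPM, both made by the authors. Libraries were poly-A selected and strand-specific, per the labels' protocols, but whether RSEM used strand is not stated, so genes with an antisense partner are uncertain. GENCODE M21 named 52083 of 55416 identifiers (93.99%). Expected counts were rounded. All 6 libraries entered 1 edgeR 4.0.16 quasi-likelihood fit (R 4.3.3) with TMM factors of 0.964 to 1.04, filterByExpr by group and Benjamini-Hochberg adjustment over 16975 genes, with 3 residual degrees of freedom. The script was tested on simulated data in which few genes changed, none of them at the lowest counts. That test does not cover the lowest genes or a change in as many genes as here. Limma 3.58.1 on log2(TPM + 1) covered 13313 genes reaching 1 TPM, and DESeq2 1.42.0 was another alternative. Replicates differed by more than sampling noise (chi-square per degree of freedom 11.8 to 12.8). Depth is 45289760 to 72547738 counts a library, where 3 counts are 0.0414 to 0.0687 CPM. Intervals and floors cover counting error only. All desmosome and catenin genes are named. Values in every library are given for members with a mean of 5 CPM in a group, or passed at 0.5 µg/ml with a log2 change of 2 or more and a mean of 1 CPM in a group. Some lower cadherins and other protocadherins were named after their values were seen. Of each partner list, the called gene with the largest change in each direction at 0.5 µg/ml is named. Krt8, Grhl2, Cdhr2, Cdhr5 and the marker genes were named after their values were seen. Members and lists were chosen with earlier results of these data known. The partner list entries Arvcf and Eppk1 were not analysed here.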

Additional observations from a re-analysis of the deposited data

How the results depend on the processing

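Of the genes called here, 37 of 51 at 0.5 µg/ml against control, 9 of 31 at 0.1 µg/ml against control and 21 of 38 between the doses were called in every alternative that tested them, and no direction of a called gene turned. With limma on log2(TPM + 1) or log2(TPM + 0.1), which tested 24 of the genes because the rest lie under 1 TPM, 6 were lower at 0.5 µg/ml, 9 higher and 0 lower at 0.1 µg/ml, and 15 higher and 6 lower between the doses. With no TPM minimum limma gave 9 higher and 3 lower at 0.1 µg/ml and 6 lower between the doses. DESeq2 gave 6 lower at 0.1 µg/ml and 9 lower between the doses. Leaving out 1 library at a time gave 5 to 15 lower at 0.1 µg/ml, 7 to 15 lower between the doses and -0.37 to -0.18 for the Pcdhg sum at 0.1 µg/ml. CPM in place of TPM gave ratios over control of 2.41 for the desmosome genes, 2.98 for Dsp and Jup, 2.54 for plakophilins, 1.32 for desmogleins and 1.52 for desmocollins, a Pkp1 share of 25.0% in control and 56.1% at 0.5 µg/ml, and a Jup share of 56.4% at 0.5 µg/ml; CPM is not per length. The cause of the other changes was not tested.

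Upper quartile scaling moved the median of all genes by -0.09 at 0.5 µg/ml. It gave 15 higher and 15 lower at 0.1 µg/ml. The labels do not say that the replicate numbers pair the libraries. Correlations of deviations were -0.21, 0.18 and -0.07, which cannot settle it with 2 libraries in each group. With a replicate block 22 were higher and 27 lower at 0.5 µg/ml, 16 and 13 at 0.1 µg/ml, and 23 and 12 between the doses. With 33 of the 68 tested genes under 1 CPM in every group, small changes of these genes were not detectable at this depth.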
